A study of Caenorhabditis elegans with 12 samples.

Results

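The mRNA of age-1(hx546) mutants was compared directly with that of rde-4(ne301) mutants, so that each single mutant served as the reference for the other. The comparison used 6 of the 12 libraries in the series, 3 from age-1(hx546) and 3 from rde-4(ne301), each from a separate worm population. The other 6 libraries came from N2 wild-type (WT) animals and from the double mutant age-1(hx546); rde-4(ne301), with 3 populations each, and they served as a reference for which of the single mutants stood apart. All animals were Caenorhabditis elegans hermaphrodites grown at 20 °C on E. coli OP50, synchronised as L1 larvae and harvested as whole young adults in which no embryos could yet be seen. Total RNA was depleted of ribosomal RNA before library construction. The study lists outcrossed (6 times) and other isolates of these strains, and the labels do not say which were sequenced.

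AGE-1 is the catalytic subunit of the phosphoinositide 3-kinase that acts below the insulin receptor DAF-2. Reduced AGE-1 activity lowers AKT signalling, lets the FOXO factor DAF-16 enter the nucleus, and lengthens life, with induction of antioxidant, immune and gluconeogenic genes as the best known transcriptional output. RDE-4 is a double-stranded RNA-binding partner of Dicer. It is required for RNAi from exogenous double-stranded RNA and takes part in the endogenous siRNA branches that load the Argonautes ERGO-1, on duplicated genes and non-coding RNAs, and ALG-3 and ALG-4, on spermatogenesis genes.

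The strain labels were checked on rde-4 itself (T20G5.11, chromosome III, 10217302 to 10218646, WBcel235). Its level, in CPM (counts scaled to library size by TMM factors), was 149, 138 and 149 in age-1 populations 1 to 3 and 31.5, 28.7 and 32 in rde-4 populations 1 to 3. It was 163 to 201 CPM in WT and 25.4 to 29.8 CPM in age-1; rde-4, so every library carrying ne301 had less rde-4 mRNA than every library without it. The difference between the single mutants was 4.73-fold (log2 2.24, SE 0.11, adjusted p = 3.05e-07, edgeR quasi-likelihood test with Benjamini-Hochberg adjustment over all genes). age-1 mRNA was 137, 129 and 128 CPM in age-1 and 122, 146 and 167 CPM in rde-4 (log2 -0.14, adjusted p = 0.688), and because hx546 changes an amino acid rather than the transcript, this level does not test the label.

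The 6 libraries held 74501098 to 80983459 counts. The first principal component of log2 CPM took 46.95% of their variance and separated the strains, with age-1 libraries at 35.02 to 58.9 and rde-4 libraries at -81.26 to -21.4. The extreme value was that of rde-4 population 3, which also had the lowest mean level of sperm genes of the 6 libraries. In that library the 59 listed sperm genes outside the major sperm protein (MSP) family, of which 56 were tested, summed to 580 CPM. The sum was 923 CPM in each of the other rde-4 libraries and 856 to 1014 CPM in age-1.

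Of 16741 genes tested, 590 (3.52%) were higher in age-1 than in rde-4 and 205 (1.22%) were lower at an adjusted p under 0.05. Protein-coding genes made up 570 of the higher and 176 of the lower calls. The median log2 difference was 1.02 among the higher genes and -1.22 among the lower genes, and 300 and 121 of them differed by more than 2-fold. The median over all genes tested was 0.04. Without any adjustment, 2539 genes (15.2%) were higher and 1354 (8.09%) lower at p under 0.05.

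The labels do not pair the populations, and deviations from strain means correlated only weakly between same-numbered ones (0.14 to 0.172). With the replicate number as a block, 1563 genes (9.34%) were higher and 578 (3.45%) lower, among them all 590 and all 205. Counts with the block given below for gene lists are to be read beside these larger shares. The counts also depended on single libraries. Leaving out rde-4 population 1, 2 or 3 gave 150, 430 and 121 higher genes and 74, 103 and 82 lower genes. Leaving out age-1 population 1, 2 or 3 gave 203, 63 and 154 higher and 71, 43 and 65 lower genes. With the block and without rde-4 population 3 there were 416 higher and 156 lower genes. A core of 59 higher and 36 lower genes was called in all 6 of these single-library omissions. Even the libraries that enter only the shared spread moved the counts, to 944 higher and 375 lower genes without age-1; rde-4 population 1.

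**Figure D1:**
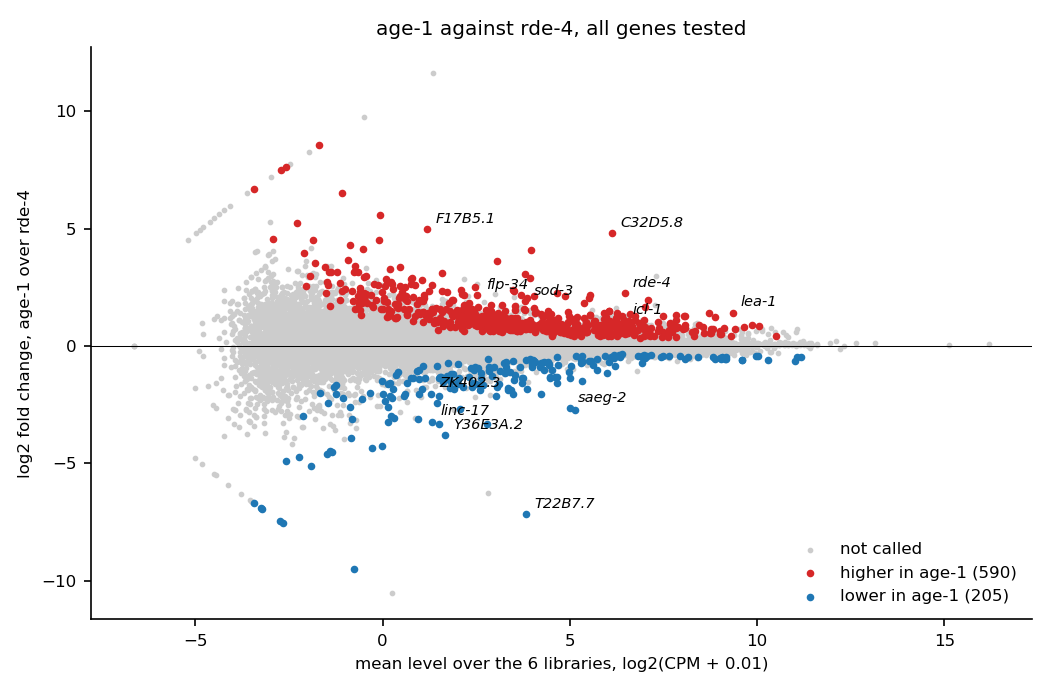
Each point is 1 of the 16741 genes tested, with its mean level over the 6 libraries as log2(CPM + 0.01) on the horizontal axis and the fitted log2 fold change, age-1 over rde-4, on the vertical axis. Red points are the 590 genes higher in age-1 and blue points the 205 lower ones. C32D5.8 and T22B7.7 stand far from the other genes of similar level, and the diagonal edges at the left are genes with counts in a few libraries.

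A large share of the genes listed here as activated by DAF-16 were higher in age-1. The list was written by hand with earlier results of these data known, so its share describes the list and is not a test. Of 31 tested, 12 were called higher and none lower (38.7%, against 3.52% of all genes), 30 had a positive log2 difference, and the list median was 0.87. With the block 21 were called. Without rde-4 population 1, 2 or 3 the count was 7, 8 and 7, and without age-1 population 1, 2 or 3 it was 7, 4 and 6. No member was called lower in any of these fits. Of 9 tested genes listed as repressed by DAF-16, 1 was lower and 0 higher (11.1% lower, against 1.22% of all genes, median -0.48). With the block 2 were lower. The lower count was 1 without rde-4 population 1 and 0 without each other library of the 6.

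sod-3, the mitochondrial manganese superoxide dismutase used as a reporter of DAF-16 activity, was at 18.1, 27 and 21.5 CPM in age-1 and at 6.11, 7.71 and 3.90 CPM in rde-4. WT libraries held 4.47 to 4.94 CPM and age-1; rde-4 libraries 15.4 to 18.9 CPM. The single mutants did not overlap, rde-4 lay near WT, and the double mutant lay near age-1 (3.76-fold, log2 1.91, SE 0.23, adjusted p = 0.00208). An antisense neighbour, C08A9.3, overlaps sod-3 at a mean of 0.65 CPM. hil-1, a linker histone H1 variant, was 19.1, 23 and 19.2 CPM in age-1 against 7.19, 8.27 and 5.1 CPM in rde-4 (log2 1.58, adjusted p = 0.00246).

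lea-1, whose product is of the LEA family of desiccation protectants, was one of the most abundant of these genes. It reached 911, 1004 and 921 CPM in age-1 and 283, 487 and 292 CPM in rde-4 (log2 1.42, SE 0.22, adjusted p = 0.00781). It was 113 to 163 CPM in WT and 406 to 651 CPM in age-1; rde-4, so for this gene rde-4 lay above WT and the double mutant fell between the single mutants. Metallothionein mtl-1 (log2 2.39, adjusted p = 0.0462) and ferritin ftn-1 (log2 1.69, adjusted p = 0.0412) were also called, but neither call survived the omission of any 1 of the 6 libraries. The second metallothionein, mtl-2, was 18.3, 11.2 and 11.9 CPM in age-1 and 19.1, 11.2 and 11.9 CPM in rde-4 and was not called.

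Genes listed for the glyoxylate shunt and gluconeogenesis followed the same direction. The list also holds the glycolytic pyruvate kinase pyk-2, so its share is not of gluconeogenic genes alone. Of 13 measured, 7 were higher and none lower (53.8%), with a median log2 difference of 0.57, and 10 were called with the block. The count was 3, 6 and 3 without rde-4 population 1, 2 or 3 and 6, 2 and 2 without age-1 population 1, 2 or 3. icl-1, the bifunctional isocitrate lyase and malate synthase that lets worms make sugar from fat, was 116, 118 and 122 CPM in age-1 and 58.4, 63 and 44.0 CPM in rde-4. WT libraries held 40.1 to 52.8 CPM of icl-1 and the double mutant 75.4 to 125 CPM, so that the animals with hx546 were the high ones whether or not they carried ne301 (log2 1.11, adjusted p = 0.00849).

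The phosphoenolpyruvate carboxykinase genes pck-1 and pck-2, whose products catalyse the committed step of gluconeogenesis, were both higher in age-1. pck-1 was 79.6, 58.3 and 67.1 CPM against 37.0, 34 and 27.9 CPM (log2 1.05, adjusted p = 0.00715), and pck-2 was 1.78-fold higher at 1367 ± 94 against 768 ± 119 CPM (SD, n = 3 populations each, adjusted p = 0.0156). The pyruvate kinase pyk-2, which runs in the glycolytic direction, was higher by less (log2 0.57, adjusted p = 0.0158). All 7 called genes had the double mutant nearer age-1 and WT nearer rde-4.

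**Figure D2:**
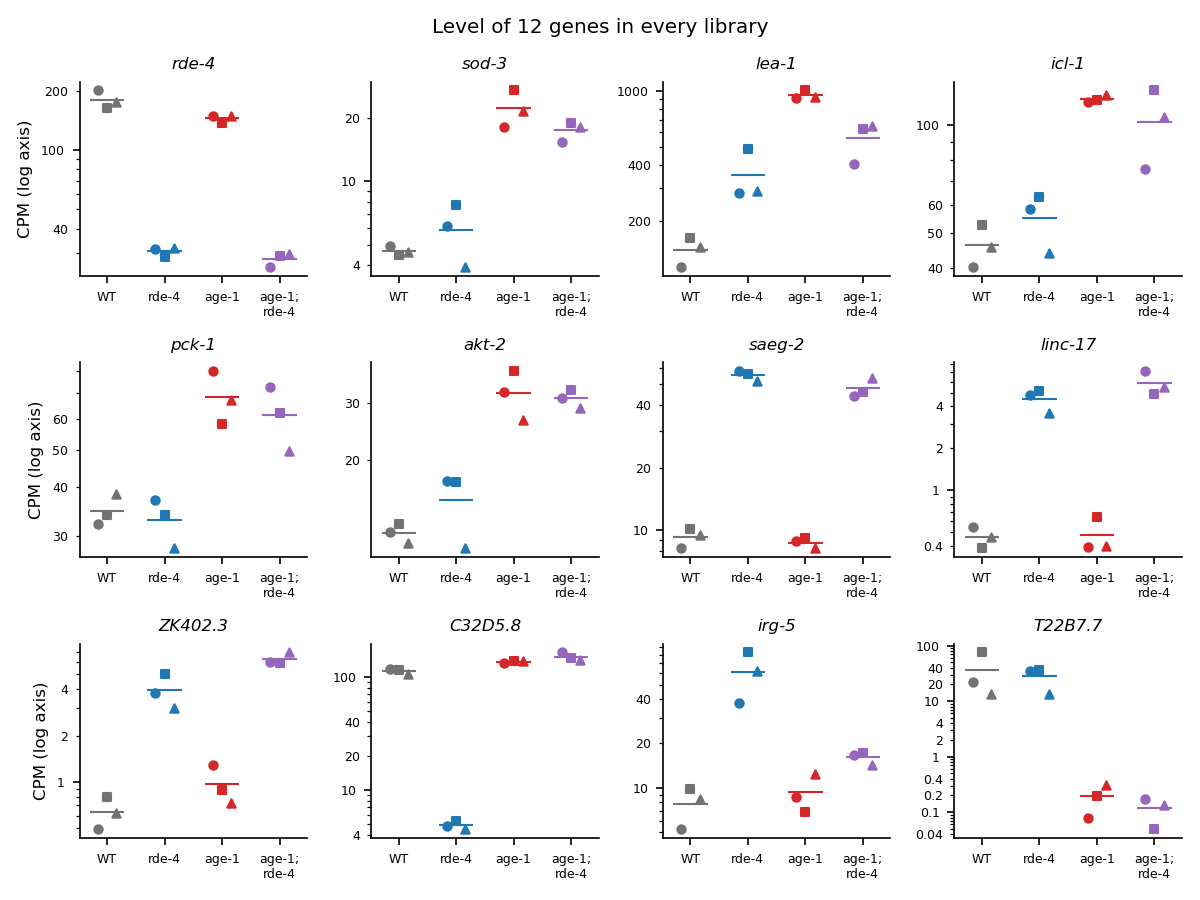
The level of 12 genes in every library is plotted in CPM on a log axis, with circles, squares and triangles for populations 1, 2 and 3 and a line at each strain's mean. sod-3, icl-1, pck-1 and akt-2 are high in both strains with the age-1 allele, and saeg-2, linc-17 and ZK402.3 are high in both strains with the rde-4 allele. C32D5.8 and irg-5 set the rde-4 single mutant apart, and T22B7.7 is low in both strains with the age-1 allele.

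Detoxification enzymes shared the direction. Of 41 glutathione S-transferases tested, 10 were higher and none lower (24.4%), with a median of 0.64. The count was 12 with the block, 2, 7 and 2 without rde-4 population 1, 2 or 3, and 6, 1 and 3 without age-1 population 1, 2 or 3. gst-4, a widely used reporter of the SKN-1 response, was 42.4, 44.4 and 51.4 CPM in age-1 and 21.2, 25.2 and 16.6 CPM in rde-4 (log2 1.13, adjusted p = 0.0158). gst-6 was 13.2 to 13.9 CPM against 5.78 to 7.18 CPM (log2 1.08, adjusted p = 0.00724), yet at 7.99 to 9.55 CPM in the double mutant it lay close to WT at 7.02 to 9.86 CPM. gst-29 and gst-42 differed by log2 1.26 and 0.98, and both had a double mutant near age-1.

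Several lists of innate immune genes had calls higher in age-1. Lower calls were found among the C-type lectins and in 1 further list. Of 39 antimicrobial peptide genes tested, 9 were higher and none lower (23.1%, median 0.79), and 12 were called with the block. Without rde-4 population 1, 2 or 3 there were 4, 4 and 2, and without age-1 population 1, 2 or 3 there were 3, 1 and 2. abf-2, which encodes an antibacterial factor related to defensins, was 2.74, 2.97 and 1.76 CPM in age-1 and 0.46, 0.18 and 0.10 CPM in rde-4. The double mutant held 2.49 to 4.49 CPM and WT at most 0.08 CPM (log2 3.35, adjusted p = 0.0127), and the gene overlaps C50F2.2 on the other strand. fip-6 and fipr-24, of a family of small secreted peptides induced by fungal infection, were higher by log2 2.29 and 1.96.

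Of 32 lysozyme and saposin-like genes, 5 were higher and none lower (15.6%), 12 with the block. The count ran from 1 to 3 without each of the 6 libraries. spp-2, a saposin-like protein, was 21.8, 27.9 and 24.7 CPM in age-1 and 9.65, 9.13 and 5.8 CPM in rde-4 (log2 1.60, adjusted p = 0.00208). The C-type lectins were mixed, with 12 of 120 higher (10%) and 1 lower. With the block 28 were higher and 2 lower, and 2 to 8 were higher without each library. clec-76 was near age-1 in the double mutant (log2 2.76, adjusted p = 0.00554), whereas clec-227 was low in the rde-4 single mutant alone, at 1.27 to 1.35 CPM against 2.63 to 5.63 CPM in the other 9 libraries. Of 16 infection response (irg) and DAF-16-dependent (dod) genes listed together, none was higher and 2 were lower, irg-5 among them (12.5%, median -0.42). With the block 2 were higher and 3 lower, and the lower count was 2 without rde-4 population 1 and 1 without each of the other 5 libraries. At an unadjusted p under 0.05 in the edgeR test 2 were higher and 4 lower, and DESeq2 called 0 and 3.

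Below the receptor, the insulin signalling cascade was nearly level between the strains. Of 13 components 1 was called, akt-2, an AKT kinase that phosphorylates DAF-16, and 2 were called with the block. It was 32.5, 37.5 and 26.6 CPM in age-1, 17.2, 17.2 and 10.7 CPM in rde-4, 11.1 to 12.7 CPM in WT and 29 to 33 CPM in age-1; rde-4. The log2 difference was 1.10 (SE 0.19, adjusted p = 0.00973), a call lost only without age-1 population 2. daf-2 (log2 0.10) and daf-16 (0.00) were not called, nor were the transcription factors skn-1 (-0.10) and hsf-1 (-0.20) or the ephrin receptor gene vab-1 (-0.27). The actin gene act-3, a common reference in quantitative PCR, was 278, 296 and 289 CPM in age-1 and 206, 251 and 187 CPM in rde-4 (log2 0.42, adjusted p = 0.106, 0.0446 with the block).

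Insulin-like peptide genes, ligands of DAF-2, differed in age-1 where they were called. Of 25 tested, 3 were higher and none lower (12%, median 0.56), 4 with the block, and 1 or 2 without each of the 6 libraries. ins-27 was 2.59, 4.06 and 2.69 CPM in age-1 and 0.93, 0.87 and 0.61 CPM in rde-4 (log2 1.95, adjusted p = 0.00723). ins-37 was 2.16, 2.72 and 1.75 CPM against 1.10, 0.78 and 0.34 CPM (log2 1.57, adjusted p = 0.0411). ins-24 was at most 1.48 CPM and had no counts in rde-4 populations 1 and 3. The ins-27 and ins-37 levels of the double mutant were closer to age-1 than to rde-4.

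In the opposite direction, the genes higher in rde-4 included targets of the ERGO-1 branch. Of 31 tested genes that the study lists as ERGO-1 and RRF-3 targets and that lost antisense small RNAs in rde-4, 10 were lower in age-1 and none higher (32.3%, against 1.22% of all genes, median -0.78). In the block fit 12 were lower and 1 higher, and the lower count was 7 or 8 without each library. For all 10, the double mutant was nearer rde-4 and WT nearer age-1, and all 10 were higher in age-1; rde-4 than in WT. The list was drawn by the study from small RNA of the same strains, so it is not independent evidence of the direction.

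Among them, ZK402.3 and ZK402.5 are neighbours 0.67 kb apart on chromosome X. ZK402.3 was 1.28, 0.89 and 0.72 CPM in age-1 and 3.77, 5.06 and 3.01 CPM in rde-4, with 0.49 to 0.80 CPM in WT and 5.94 to 6.97 CPM in the double mutant (log2 -2.03, SE 0.28, adjusted p = 0.00404). ZK402.5 differed by log2 -2.61 (adjusted p = 0.00355). Both were thus low in the strains with an intact rde-4 gene and high in those without. W04B5.1 was 6.41, 7.12 and 6.48 CPM against 18.3, 24 and 17.3 CPM (log2 -1.58, adjusted p = 0.00495), and F39E9.7 was 6.64, 8.86 and 7.45 CPM against 20.9, 18.6 and 18.9 CPM (log2 -1.35, adjusted p = 0.00352). All 4 calls held without any 1 of the 6 libraries.

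The wider list of genes that lost antisense small RNAs in rde-4 had a median of 0.00 between the single mutants. Of 918 tested, 37 were lower in age-1 (4.03%, against 1.22% of all genes) and 17 higher (1.85%, against 3.52%). With the block 70 and 56 were called. In age-1; rde-4 against WT, 483 of the list were higher and 5 lower (against 8.95% and 3.17% of all genes), with a median of 1.58. The lower count was 16, 22 and 33 without rde-4 population 1, 2 or 3 and 17, 18 and 17 without age-1 population 1, 2 or 3, and the higher count was 15 without rde-4 population 2 and 2 to 4 without each of the other 5 libraries. All 37 lower genes had the double mutant nearer rde-4 and WT nearer age-1, and 35 of them were higher in age-1; rde-4 than in WT. The 17 higher genes were not of 1 kind, with 7 apart in the age-1 single mutant and 6 following the age-1 allele.

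Long intergenic non-coding RNAs repeated this asymmetry in a smaller group. Of 75 tested, 7 were lower in age-1 and none higher (9.33%), 9 and 1 with the block. The count was 4, 7 and 5 without rde-4 population 1, 2 or 3 and 5, 4 and 4 without age-1 population 1, 2 or 3, while the list median was 0.11. linc-17 was 0.40, 0.64 and 0.40 CPM in age-1 and 4.77, 5.15 and 3.57 CPM in rde-4, a 9.35-fold difference (SE of log2 0.28, adjusted p = 0.000177). It was 0.38 to 0.54 CPM in WT and 4.92 to 7.09 CPM in age-1; rde-4, so the level followed the rde-4 allele in all 12 libraries. linc-41 (log2 -3.10), linc-45 (-3.06) and linc-21 (-1.79) were placed alike, and 6 of the 7 called RNAs were also higher in age-1; rde-4 than in WT.

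The protein-coding gene with the smallest adjusted p in this direction was saeg-2 (T23G5.6, chromosome III, 9240363 to 9242514), whose product acts in the nucleus with the cGMP-dependent kinase EGL-4. It was 8.87, 9.17 and 8.21 CPM in age-1 and 57.8, 56.3 and 51.8 CPM in rde-4 (6.32-fold, log2 -2.66, SE 0.13, adjusted p = 3.05e-07). WT had 8.20 to 10.1 CPM and the double mutant 44.2 to 53.5 CPM, so again the rde-4 allele marked the high libraries. saeg-2 lies 974.8 kb from rde-4 on the same chromosome and overlaps an antisense non-coding RNA, T23G5.10, with a log2 difference of -2.22. Within 1 Mb of rde-4, 395 genes were tested, of which 10 were higher (2.53%) and 9 lower (2.28%) in age-1, and of all these calls 10 followed the age-1 allele and 5 the rde-4 allele. The part of linked variants in these calls was not tested.

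Y36E3A.2 showed a large difference of the same kind, at 0.33, 0.64 and 0.30 CPM in age-1 and 5.55, 7.90 and 4.33 CPM in rde-4 (log2 -3.80, adjusted p = 0.00404). C06A5.2 (log2 -2.43, adjusted p = 0.00623) and C15H7.4 (log2 -2.15, adjusted p = 0.0178) were also high in both strains that carry ne301.

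Some of the largest differences did not follow either allele, because 1 single mutant alone stood apart from the other 3 strains. The gene with the smallest adjusted p of all was C32D5.8 (chromosome II, 6343058 to 6345922), at 132, 138 and 137 CPM in age-1 and 4.74, 5.27 and 4.44 CPM in rde-4, a 28.2-fold difference (log2 4.82, SE 0.12, adjusted p = 1.41e-10). WT held 106 to 118 CPM and the double mutant, which carries the same ne301 allele, 141 to 165 CPM. The low level was therefore found in the rde-4 single mutant libraries and in none of the other 9. The non-coding C32D5.18, which lies within C32D5.8 on the other strand, shared the pattern (log2 5.56, adjusted p = 0.0012), and the reads of the pair may not be separate.

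C10C6.7 and irg-5 were high in the rde-4 single mutant. C10C6.7 was 1.39, 1.34 and 1.06 CPM in age-1 and 11.9, 10.7 and 15.1 CPM in rde-4, with 1.55 to 3.57 CPM in WT and 1.17 to 1.83 CPM in the double mutant (log2 -3.31, SE 0.34, adjusted p = 0.00109). irg-5, an infection response gene induced by bacterial pathogens, was 8.71, 6.85 and 12.4 CPM in age-1, 37.9, 83.0 and 62.4 CPM in rde-4, 5.22 to 9.77 CPM in WT and 14.4 to 17.1 CPM in age-1; rde-4 (log2 -2.71, SE 0.31, adjusted p = 0.00205). Here the double mutant lay above WT but well below rde-4. The nuclear hormone receptor genes nhr-95 (log2 -1.22) and nhr-145 (log2 -1.58) were also highest in rde-4 alone. All 4 calls held without any 1 of the 6 libraries.

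The largest difference among called protein-coding genes with at least 100 normalized counts on average was that of T22B7.7 on chromosome X. It was 0.08, 0.19 and 0.31 CPM in age-1, 34.3, 37.1 and 13.6 CPM in rde-4, 13.6 to 75.7 CPM in WT and 0.05 to 0.17 CPM in the double mutant. The gene stayed at or below 0.31 CPM in both strains with hx546 and varied widely among the libraries of the others (log2 -7.18, SE 0.78, adjusted p = 0.00124). In the opposite sense, F17B5.1 was 2.55, 6.72 and 3.85 CPM in age-1 and 0.05, 0.26 and 0.11 CPM in rde-4 (log2 4.96, SE 0.80, adjusted p = 0.00825), and it was high in the double mutant too. The neighbouring genes F45D11.14, F45D11.15 and F45D11.16 on chromosome II followed F17B5.1 with log2 differences of 3.63, 3.08 and 4.07, the highest values being in population 2 of each strain with hx546. acbp-8, an acyl-CoA-binding protein, was lowest in age-1 at 3.43 to 4.75 CPM, against 12.6 to 13.2 CPM in rde-4 and 7.53 to 10.4 CPM in the double mutant (log2 -1.63, adjusted p = 0.00112).

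The small RNA machinery itself differed little apart from rde-4. Of 15 genes of the primary siRNA pathways, rde-4 was higher and pir-1, an RNA phosphatase of the Dicer complex, lower in age-1 (log2 -0.51, adjusted p = 0.0334), the latter at 57.3 to 64.1 CPM against 77 to 88.7 CPM. The pir-1 call held without rde-4 population 2 and was lost in the other 5 omissions. The block added 1 call in each direction. dcr-1 (log2 -0.21), rde-1 (-0.18) and ergo-1 (0.13) were not called. Of 31 genes of secondary siRNA amplification and of the other Argonautes, wago-10 was higher (log2 1.99, adjusted p = 0.0255), a call that held in 2 of the 6 omissions and was lost without rde-4 population 1 or 3 and age-1 population 2 or 3, and ego-1, an RNA-dependent RNA polymerase of the germline, and prg-1, the piRNA Argonaute, were lower (log2 -0.46 and -0.56, adjusted p = 0.0251 and 0.0444). Neither of the lower calls held without any 1 of the 6 libraries, and 6 genes were lower with the block.

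alg-3 and alg-4, the Argonautes of spermatogenesis, did not differ beyond the spread of the populations. alg-3 was 30.7, 42.2 and 32.5 CPM in age-1 and 26.4, 34 and 11.4 CPM in rde-4 (log2 0.55, SE 0.42, adjusted p = 0.453). WT was at 3.73 to 14.3 CPM and the double mutant at 26.5 to 37.8 CPM. The low rde-4 value was that of population 3, the library with the lowest sperm gene level, and alg-4 was likewise lowest in that library (log2 0.68, adjusted p = 0.371).

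Sperm genes as a group were not called either. In these whole animals, a smaller number of cells of a type and less RNA per cell cannot be told apart. None of 56 sperm genes outside the MSP family passed in either direction, and 1 of 52 MSP and related genes, msp-42, was higher (log2 2.54, adjusted p = 0.0213), a call that held in only 1 of the 6 omissions. For the sperm list, 10 genes were higher and 3 lower at an unadjusted p under 0.05 in the edgeR test, DESeq2 called 6 and 2, and the block 8 and 2. The MSP list had a median of 0.73, and for 34 of its 52 members (against 21.9% of all genes) the 3 age-1 libraries lay above the 3 rde-4 libraries. At an unadjusted p under 0.05 in the edgeR test 13 MSP genes were higher and 2 lower. DESeq2 called 1 higher and 2 lower, and the block 2 and 1. MSP genes are near-identical copies whose reads may be shared. The mean centred log2 level of the MSP list was 0.79, 0.88 and 0.68 in age-1 and 0.47, 0.44 and -0.86 in rde-4, so population 3 carried much of the difference. dct-9, which encodes an MSP domain, ran the other way at 4.41, 5.03 and 2.46 CPM in age-1 and 10.9, 11.7 and 4.65 CPM in rde-4 (log2 -1.20, adjusted p = 0.112, 0.0423 with the block). ssp-16 was 5.81, 7.4 and 5.89 CPM against 16.8, 16.3 and 7.15 CPM (log2 -1.08, adjusted p = 0.147, 0.0992 with the block), while melo-3 was 8.01, 12.3 and 8.97 CPM against 12.1, 12.3 and 6.05 CPM (log2 -0.06, adjusted p = 0.946).

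A further sperm gene was chosen after its values were seen. gsp-3, a phosphatase needed for sperm meiosis and motility, was 25.2, 28.2 and 21.4 CPM in age-1 and 10.7, 11.7 and 3.99 CPM in rde-4 (log2 1.5, adjusted p = 0.0867, 0.0269 with the block). The age-1 libraries all lay above the rde-4 libraries.

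Muscle genes lay higher in age-1. Of 19 tested, 18 had every age-1 library above every rde-4 library (against 21.9% of all genes), 3 were called (15.8%, median 0.71), and 13 were called with the block. None was called without rde-4 population 1, rde-4 population 3, age-1 population 2 or age-1 population 3, 1 was called without age-1 population 1 and 3 without rde-4 population 2, and 2 were called with the block and without rde-4 population 3. unc-15, the thick filament protein paramyosin, was 104, 79.7 and 76 CPM against 48.9, 54.9 and 31.1 CPM (log2 0.94, adjusted p = 0.0423). The troponins tni-3 and tnt-2 were higher by log2 1.34 and 0.60. The body wall myosin unc-54, named after its values were seen, was 535, 432 and 380 CPM against 253, 298 and 139 CPM (log2 0.96, adjusted p = 0.0745, 0.0307 with the block). In age-1; rde-4 against WT, 0 of the 19 muscle genes were called higher and 0 lower, with a median of 0.11. The mean centred log2 level of the list was -0.167 to 0.005 in age-1; rde-4 and -0.573 to 0.295 in WT. It was 0.445 to 0.608 in age-1.

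Of 16 neuronal genes, unc-13, which primes synaptic vesicles, was called (log2 0.92, adjusted p = 0.0302), and 4 with the block. The unc-13 call held without rde-4 population 2 and was lost in the other 5 omissions. Of 58 molting genes 4 were higher (6.9%), 15 with the block, 4 without rde-4 population 2 and 1 without each of the other 5 libraries, led by the hedgehog-related grd-4 at 2.43 to 2.64 CPM against 0.41 to 0.48 CPM (log2 2.51, adjusted p = 0.00352). Collagens of the cuticle were close to the background, with 5 of 134 higher (3.73%) and 1, col-95, lower. With the block 20 were higher, and without rde-4 population 1, 2 or 3 and age-1 population 1, 2 or 3 the count was 1, 5, 0, 1, 0 and 2. Oocyte and germ cell lists leaned the other way without any call, with medians of -0.16 and -0.19 over 31 and 24 genes. At an unadjusted p under 0.05 in the edgeR test 4 and 3 of them were lower and none higher, and DESeq2 called 1 and 0. Of 13 early embryonic genes 1, sdz-30, was lower (log2 -4.36), and the call was lost in every omission of 1 of the 6 libraries. The part of staging or tissue make-up in the lists of this comparison was not tested.

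**Figure D3:**
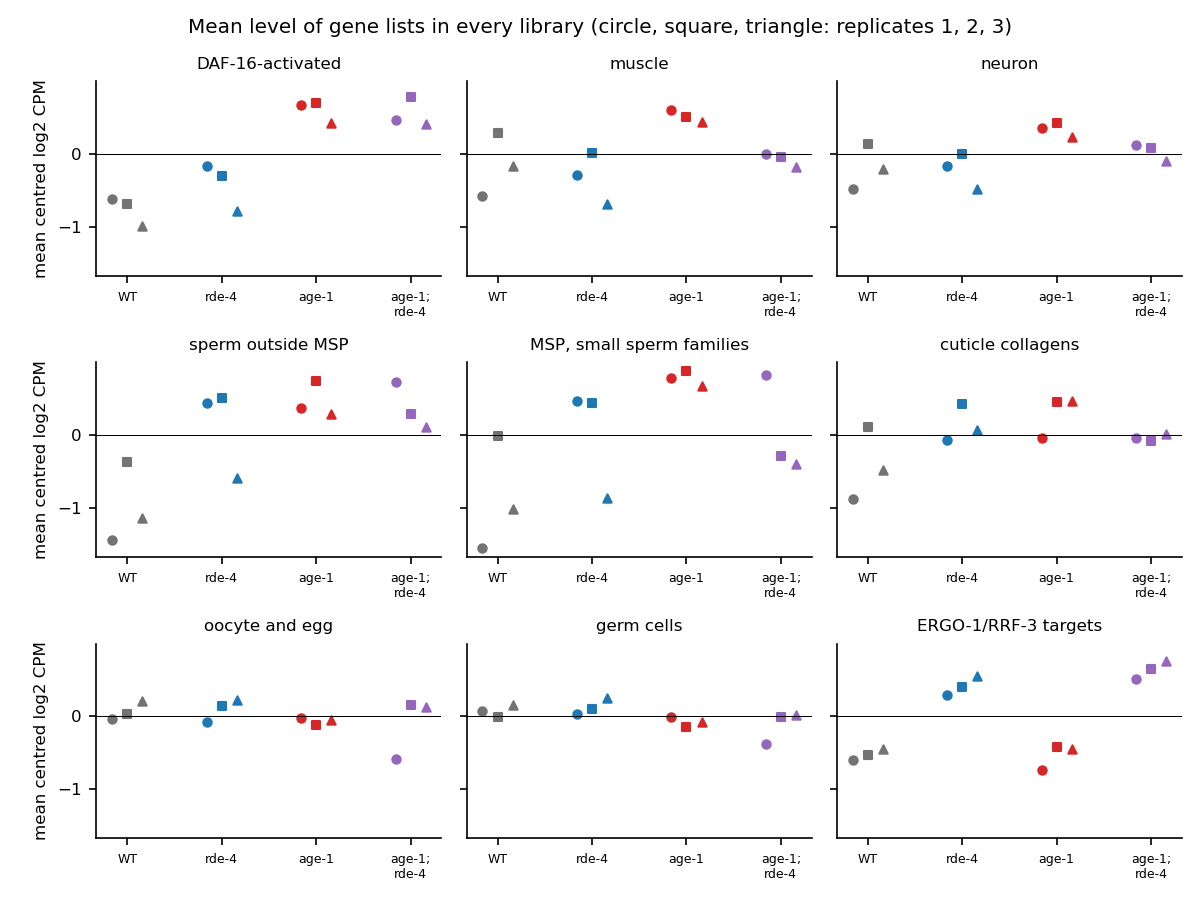
Each panel shows, for every library, the mean over a gene list of log2 CPM centred per gene across the 12 libraries, by strain on the horizontal axis and with circles, squares and triangles for populations 1, 2 and 3. The DAF-16-activated list is high in both strains with hx546 (0.44 to 0.71 in age-1 against -0.77 to -0.16 in rde-4), and ERGO-1 and RRF-3 targets are high in both strains with ne301. In the sperm and MSP panels rde-4 population 3 lies far below the other rde-4 libraries.

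Histone genes were called in both directions. Of 72, 12 were higher (16.7%) and 22 lower (30.6%) in age-1, and 14 and 25 with the block. Without rde-4 population 1, 2 or 3 the higher count was 10, 6 and 12 and the lower count 9, 18 and 8. Without age-1 population 1, 2 or 3 they were 6, 2 and 2 higher and 12, 2 and 10 lower. his-10, a histone H4 gene, was 222, 203 and 229 CPM in age-1 and 79.9, 103 and 136 CPM in rde-4, against 257 to 285 CPM in WT (log2 1.04, adjusted p = 0.00554). his-63, a histone H3 gene, was 999, 957 and 1004 CPM in age-1 and 1549, 1473 and 1479 CPM in rde-4 (log2 -0.61, adjusted p = 0.00628). For all 12 higher genes WT and the double mutant both lay nearer age-1, and for 13 of the 22 lower genes both lay nearer rde-4. On a scale from rde-4 (0) to age-1 (1), WT lay at 0.152 (his-31) to 0.473 (his-64) for these 13, in part close to midway. Copies of each histone are nearly identical, so their reads may have been divided between them.

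**Figure D4:**
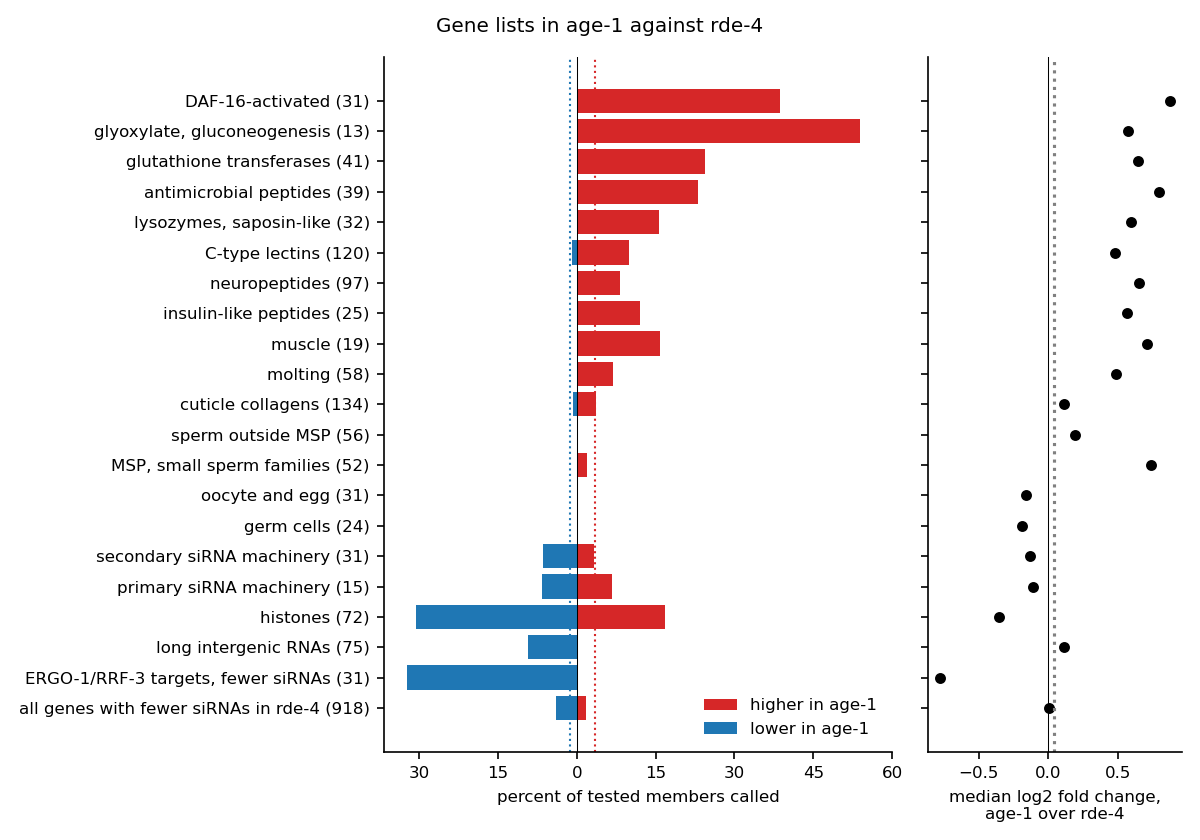
For 21 gene lists, with the number of tested members in brackets, the left panel shows the percent of members called higher (red, to the right) or lower (blue, to the left) in age-1 than in rde-4. Dotted lines mark the 3.52% and 1.22% of all genes called. The right panel shows the median log2 fold change of each list beside that of all genes (dotted, 0.04).

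The double mutant and WT placed these differences by allele. For each called gene the position of a strain was taken between rde-4 (0) and age-1 (1) on the log2 scale. Genes were classed by the side of the midpoint alone, so a strain near midway is also given to 1 side. Of the 590 genes higher in age-1, 373 (63.2%) had the double mutant nearer age-1 and WT nearer rde-4, and the median positions were 0.76 for the double mutant and 0.13 for WT. Of the rest, 96 (16.3%) set the rde-4 single mutant apart, 89 (15.1%) the age-1 single mutant, and 32 (5.42%) followed the rde-4 allele. The 205 lower genes divided differently, with 78 (38%) following the rde-4 allele, 62 (30.2%) apart in age-1, 42 (20.5%) following the age-1 allele and 23 (11.2%) apart in rde-4.

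A test that uses none of the 6 libraries beyond the shared spread and scaling, age-1; rde-4 against WT, called 1499 genes higher (8.95%) and 530 lower (3.17%). Of the 590 genes higher in age-1 than in rde-4, 233 (39.5%) were higher in the double mutant than in WT and 11 (1.86%) lower. Of the 205 lower genes, 59 (28.8%) were higher in the double mutant and 21 (10.2%) lower. asp-3, a lysosomal aspartyl protease, was among the 11, at 1168, 1159 and 1316 CPM in age-1 and 639, 699 and 630 CPM in rde-4 with 1331 to 1442 CPM in WT and 646 to 1000.5 CPM in the double mutant (log2 0.89, adjusted p = 0.00781, and log2 -0.68, adjusted p = 0.00872, in the double mutant against WT).

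**Figure D5:**
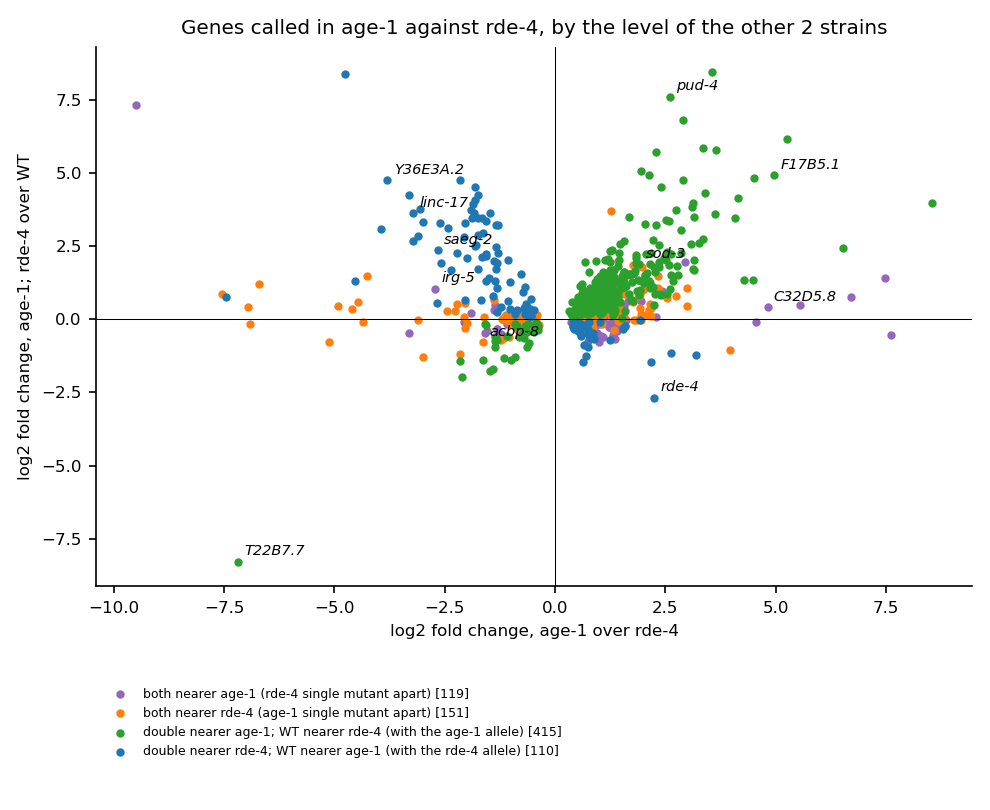
Each point is 1 of the 795 genes called in age-1 against rde-4, with that log2 fold change on the horizontal axis and the log2 fold change of age-1; rde-4 over WT on the vertical axis. Colours give the side of the midpoint between rde-4 and age-1 on which the double mutant and WT lay. By this cut 415 genes follow the age-1 allele, 110 the rde-4 allele, 119 are apart in rde-4 and 151 apart in age-1. Genes that follow the age-1 allele fill the upper right, and saeg-2 and linc-17 are among those that follow the rde-4 allele at the upper left.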

How the data were processed

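The 12 libraries were strand-specific and ribosomal RNA-depleted, with alignment by HISAT2 (2.0.5) against the WBcel235 genome and quantification by StringTie, both run by the authors. Deposited values were whole-number counts per gene, not normalized, and whether counting used strand is not given in the sources used here, so overlapping genes may share reads. Of 46653 identifiers, 45305 were matched to RefSeq symbols by locus tag and 876 by transcript.

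Genes were filtered with filterByExpr, scaled by TMM and fitted with edgeR 4.0.16 (R 4.3.3), with the 4 strains as groups over all 12 libraries and the quasi-likelihood test of age-1 against rde-4. p-values were adjusted by Benjamini-Hochberg over 16741 genes and called under 0.05. Log2 CPM for levels over lists used a prior count of 2. Levels are CPM with TMM factors, comparable between libraries but not between genes. Alternatives were RLE size factors, the edgeR exact test, no filter, a filter at a mean of 50 normalized counts, DESeq2 1.42.0, these groups alone, protein-coding genes alone, a replicate block and the omission of each library.

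Deviations from group means correlated at 0.14, 0.153 and 0.172 between same-numbered age-1 and rde-4 populations and at -0.161 to 0.008 between others. Within a strain these deviations cancel out, so the correlations are not independent of one another. The labels give 3 biological replicates per strain and no pairing. The block is therefore an alternative that assumes a pairing by number.

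On counts simulated for this contrast (16741 genes), the main test recovered 10.45% of genes changed 1.5-fold, 50.75% changed 2-fold and 90.91% changed 4-fold, with 3.81% of its calls false. On the same counts 18% of the calls of the exact test and 24.16% of those of DESeq2 were false. The simulated libraries were drawn independently with the fitted spread, without a replicate effect or an outlying library. The least abundant genes were left unchanged. These shares therefore hold for that setting and do not give the false share among the real calls.

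Named genes were those the study discusses, the 12 per direction of largest change among called, non-overlapping protein-coding genes with a mean of 100 normalized counts, the 6 per direction of smallest adjusted p, and up to 4 called members per list. These genes, the 43 lists of known genes and the 5 small RNA lists were chosen with earlier results of these data known. Some results are not reported here because their items are withheld.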

Additional observations from a re-analysis of the deposited data

How the results depend on the processing

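The counts of calls moved with most choices. Against 590 higher and 205 lower genes, DESeq2 gave 1236 and 532, the edgeR exact test 1080 and 347, the fit of both strains alone 1116 and 551, the replicate block 1563 and 578, and no filter 286 and 94. DESeq2 and the exact test also made a larger share of false calls than the main test in the self-test on simulated counts. That self-test had no replicate effect or outlying library, so it does not rank the methods on the real libraries. RLE size factors gave 539 and 223, a mean of 50 normalized counts 594 and 201, and protein-coding genes alone 595 and 183. Omitting 1 of the 6 libraries gave 63 to 430 higher and 43 to 103 lower genes. Omissions of WT or double mutant libraries, which were added after seeing the data, ran up to 944 and 375 without age-1; rde-4 population 1. The block without rde-4 population 3, also added then, gave 416 and 156.

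Of the 795 called genes, 324 were also called in age-1; rde-4 against WT. This was 654 with DESeq2, 169 without a filter, 881 with the block and 72 to 504 over the omissions. Called members of the lists numbered 167, against 306 with DESeq2, 269 with the exact test, 94 without a filter, 293 with both strains alone, 372 with the block and 29 to 111 over the omissions. For lists without a lower call in the edgeR test, members lower at an unadjusted p under 0.05 were counted. The count was 0 for the DAF-16-activated, antimicrobial, lysozyme and saposin-like, insulin-like, neuropeptide, muscle, neuron and molting lists. It was 1 for gluconeogenesis, glutathione transferases and glucuronosyltransferases, 2 for the MSP list and 3 for P450 genes. DESeq2 called 0 lower in each of these except the MSP list (2) and P450 genes (2). Where a list had no higher call, long intergenic RNAs had 6 and the ERGO-1 targets 1 higher at an unadjusted p under 0.05, and DESeq2 called 1 and 0.

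The double mutant lay nearer age-1 for 67.2% of called genes and for 61.3% to 65.9% under the alternatives.

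No called gene described here changed sign. Of 68 such genes, 68 stayed called with the block, 68 with DESeq2 and 57 without a filter, and 40 to 59 over the omissions of 1 of the 6 libraries. The block changed no other call than those given with their results. Signs turned only for genes that were not called. Over the omissions melo-3 ran from -0.325 to 0.115, nrde-3 from -0.155 to 0.002, ergo-1 from -0.005 to 0.222, daf-16 from -0.035 to 0.032, daf-2 from -0.011 to 0.232, hsp-16.2 from -0.024 to 1.262 and mtl-2 from -0.284 to 0.273, the last at 0.131 with the block and without rde-4 population 3 (log2, age-1 over rde-4). The cause of these changes was not tested. With 3 populations per strain, genes that were not called may still differ.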

Other observations

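Neuropeptide genes were called in 1 direction. Of 97 flp and nlp genes tested, 8 were higher in age-1 than in rde-4 and none lower (8.25%, against 3.52% of all genes), with a median log2 difference of 0.65, and 19 were called with the block. The list includes some nlp genes that also stand among the antimicrobial peptides, so calls may be counted in both lists. The 8 calls include nlp-28, nlp-31 and nlp-33. The count was 1, 5 and 1 without rde-4 population 1, 2 or 3 and 2, 1 and 1 without age-1 population 1, 2 or 3. flp-34, an FMRFamide-like peptide, was 5.63, 12.3 and 10.3 CPM in age-1, 1.32, 2.30 and 2.64 CPM in rde-4, 1.37 to 2.14 CPM in WT and 6.99 to 12.3 CPM in the double mutant (log2 2.18, SE 0.35, adjusted p = 0.00825). nlp-24 was 76.5, 56 and 67.2 CPM against 23.4, 41.4 and 15.9 CPM (log2 1.31, adjusted p = 0.0228). All 8 called genes had the double mutant nearer age-1 and WT nearer rde-4.

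Phase I and II enzymes outside the glutathione transferases were less uniform. Of 72 cytochrome P450 genes 3 were higher (4.17%, 15 with the block), and of 65 UDP-glucuronosyltransferase genes 5 were higher (7.69%, 17 with the block). Over all genes 3.52% were higher, and 9.34% with the block, so the P450 share was close to that of all genes. The P450 count was 1 without age-1 population 2 and 2 without each of the other 5 libraries, and the transferase count ran from 0 to 3 over the 6 omissions. cyp-35C1 was 170, 131 and 154 CPM in age-1 and 66.7, 81.8 and 86.1 CPM in rde-4, whereas WT held 113 to 140 CPM and the double mutant 118 to 164 CPM (log2 0.96, adjusted p = 0.00781). For this gene the rde-4 single mutant was the strain apart, as it was for ugt-23 (log2 0.78, adjusted p = 0.00825). The methionine adenosyltransferase sams-5 was 62.1, 74.7 and 59.6 CPM against 20.4, 25.5 and 9.40 CPM and was called in only 1 of the 6 omissions (log2 1.83, adjusted p = 0.0218).

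The genes lower in age-1 were spread unevenly over the chromosomes. They made up 2.2% of the 2820 genes tested on chromosome IV and 0.841% to 1.21% of those on the other 5 chromosomes. Of the 22 histone genes lower in age-1, 19 lie on chromosome IV, where all lower calls numbered 62. How many of the 72 tested histone genes lie on this chromosome was not counted, so the 19 have no base share. Histone copies are nearly identical and may divide reads between them, so these calls are not separate. Calls higher in age-1 ran from 2.24% on chromosome I to 4.84% on chromosome V.

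The heat shock gene hsp-16.2, chosen after its values were seen, was highest in population 1 of every strain. It was 163, 64.1 and 69.2 CPM in age-1, 120, 52.9 and 30.4 CPM in rde-4, 94.2, 60.7 and 48.7 CPM in WT and 148, 67.9 and 56.3 CPM in age-1; rde-4. The difference between the single mutants was log2 0.54 (adjusted p = 0.552, and 0.0423 with the block), and its copies in the hsp-16 cluster share sequence.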
